A study of Mus musculus with 8 samples.

Results

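The genes described here are the semaphorins, ephrins, Slits and netrins, which are families of axon guidance cues, together with their plexin, neuropilin, Eph, Robo, Dcc and Unc5 receptors. They were chosen by symbol. Every protein-coding gene was taken whose symbol begins with Sema and a class number from 3 to 7, with Plxna to Plxnd, with Epha or Ephb and a digit, with Efna or Efnb, with Slit, Robo, Ntn or Nrp and a digit, or with Unc5, and Dcc was added. That gave 70 genes of the 30395 gene identifiers listed for each library. The 70 comprised 7 class 3 semaphorins, 13 semaphorins of classes 4 to 7, 9 plexins, 2 neuropilins, 8 ephrins, 14 Eph receptors, 3 Slits, 4 Robos, 3 netrins, 5 netrin receptors and 2 other symbols that the wording catches, Unc50 and Unc5cl. Unc50 encodes a Golgi membrane protein and is not a guidance gene.

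Class 3 semaphorins are secreted and most of them bind a neuropilin that pairs with a plexin, whereas the other vertebrate classes are anchored in the membrane and bind plexins directly. Ephrins are cell-surface ligands of the Eph receptor tyrosine kinases, Slits are secreted ligands of Robo receptors, and netrins are secreted relatives of laminin that bind Dcc and Unc5 receptors. These cues were first known from growing axons, and they also act in vessel growth, cell sorting and cell migration. Stellate cells are the vitamin A-storing pericytes of the liver sinusoid, and peribiliary mesenchymal cells lie around the bile ducts.

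Gli1+ peribiliary mesenchymal cells and stellate cells were sorted from mouse liver and their RNA was sequenced, without injury or 5 d after the bile duct was tied (bile duct ligation, BDL), which stops bile flow. Each of the 4 groups holds 2 libraries. All 8 libraries came from 8-week-old mice of mixed strain (C57BL/6, SWR/J) and genotype Gli1:CreER+/-; Ai9+/-, so the stellate libraries carry the same alleles, a Cre recombinase under the control of Gli1 and a red fluorescent reporter. The labels do not give the sort gates, nor whether the 2 libraries of a group came from separate mice, so the p-values here measure the spread between libraries, which may be technical.

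Library totals ran from 11261775 to 19180370 reads, so that 3 reads equalled 0.156 to 0.266 CPM (reads per 1000000 in the library). Summed over 10 stellate markers, among them Lrat and Reln, the stellate libraries held 23119 to 66560 CPM and the Gli1+ libraries 835 to 1901 CPM. Gli1 itself stood at 2.39 to 14.9 CPM in the Gli1+ libraries and at 0 to 0.0584 CPM in the stellate ones. The Gli1+ libraries also held marker transcripts of bile duct and mesothelial cells. Of 9 cholangiocyte markers, summing to 3315 to 16064 CPM there against 3.96 to 757 CPM in stellate libraries, 7 were higher before and 9 after BDL by the test described below, and of 8 mesothelial markers, at 3193 to 11019.6 CPM against 4.40 to 9.91 CPM, 8 were higher in both. Krt19 is in both of these lists. The 10 portal fibroblast markers summed to 9443 and 6411 CPM in uninjured and 3103 and 2626 CPM in ligated Gli1+ libraries. In Gli1+ uninjured replicate 2 the mesothelial sum, 11019.6 CPM, was above the portal fibroblast sum. After BDL the cholangiocyte and mesothelial sums were both above it in each Gli1+ library. Spp1 alone gave 10259 CPM of the highest cholangiocyte sum, in Gli1+ BDL replicate 1. It gave 743 CPM of the highest stellate sum, in stellate BDL replicate 2. Macrophage markers summed to 11953 CPM in replicate 1 of uninjured stellate cells and to 67.2 CPM in replicate 2. Whether such cells carry any guidance transcript described here was not tested. In bulk RNA, fewer cells of a type and less RNA per cell cannot be told apart.

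Of the 70 genes, 57 reached 1 CPM in at least 2 libraries and were tested. The 13 others were Epha5, Epha6, Epha8, Epha10, Robo3, Sema3g, Sema4f, Sema7a, Efna3, Dcc, Unc5c, Unc5d and Ntn5, of which 10 stayed below 1 CPM in every library. Dcc, the receptor through which netrin attracts axons, was among those. A further 9 genes (Ephb1, Ephb6, Slit1, Slit2, Sema3b, Sema3c, Sema3e, Sema5b and Unc5cl) reached 1 CPM in Gli1+ libraries only, so they could enter the test only by being high there.

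Guidance genes were first compared between the 2 cell types. In uninjured liver the Gli1+ libraries were higher for 19 genes and lower for 7, so 26 of 57 passed the test (limma on log2(CPM + 1), Benjamini-Hochberg adjusted p under 0.05 over 16446 genes), where 11.1% of all genes tested did (8.06% higher and 3.02% lower). After BDL 9 were higher and 6 lower, 15 of 57 against 6.8% of all genes (4.44% and 2.36%). Of the higher genes, 7 of the 19 and 5 of the 9 had entered the test through Gli1+ libraries only. The median log2 fold change of the 57 was 0.48 in uninjured and 0.06 in ligated liver, beside 0.32 and 0.23 over all genes. Scaling by TMM, which lowers the median of all genes by 0.20 and 0.14, called 25 and 15 genes, against 10.6% and 6.67% of all. After BDL edgeR called 9 (3.78% of all genes) and DESeq2 25 (10.1%). The libraries of the 2 cell types did not overlap for 41 of 57 genes before and 45 of 57 after BDL, as they did not for 45.7% and 53.9% of all genes.

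The pair of cell comparisons share no library, but they use the same estimate of each gene's spread, taken over all 8 libraries. Their calls are therefore not independent. In both, 13 genes passed with the same sign. They make up 50% of the calls in uninjured liver and 86.7% of those after BDL. The same shares over all genes called were not computed, so this overlap is not shown to be particular to guidance genes. Higher in Gli1+ cells in both were the ligands Sema3c, Sema5a, Slit2, Slit3 and Efnb2 and the receptors Plxna4, Ephb1 and Ephb6. Of these, Sema3c, Slit2, Ephb1 and Ephb6 had entered the test through Gli1+ libraries only. Lower in both were the ligands Ntn1 and Sema6d and the receptors Robo2, Unc5a and Epha7. Of the 26 genes called in uninjured liver, 23 kept their sign after BDL and 21 had a smaller absolute log2 fold change there. The 26 were picked by their large uninjured differences, so smaller values in another comparison can follow from that choice alone. These counts therefore do not show that BDL narrows the difference, and the same counts over all genes called were not computed.

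**Figure D1:**
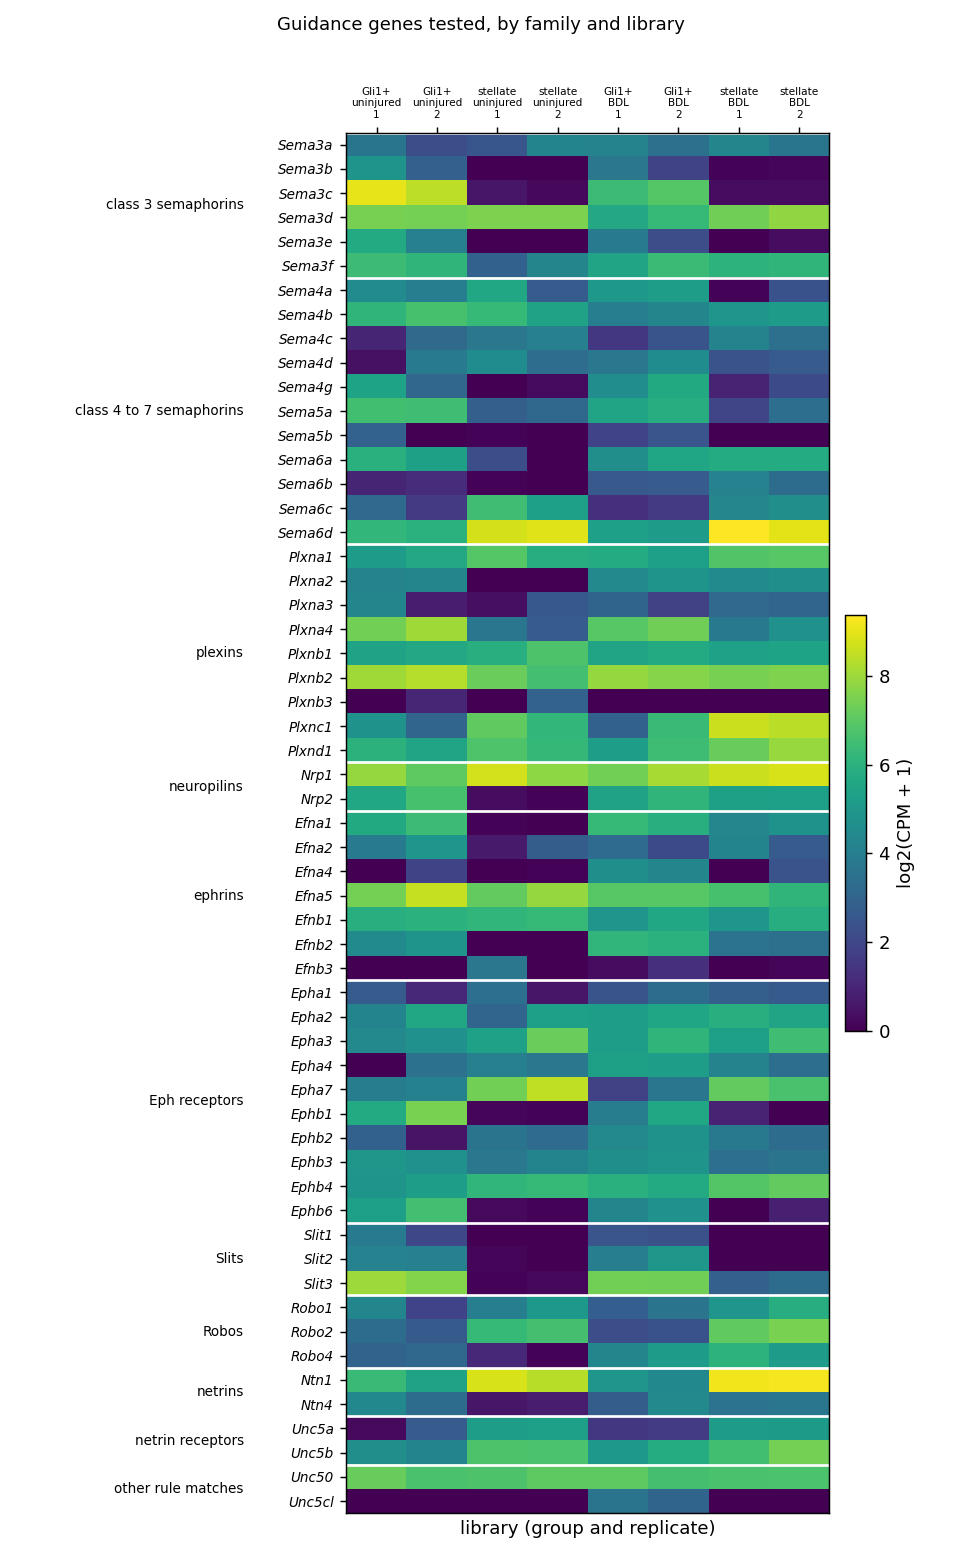
Level of each of the 57 tested guidance genes (rows, grouped by family) in each of the 8 libraries (columns), as log2(CPM + 1) on a colour scale from dark (0) to yellow. Slit1, Slit2, Sema3b, Sema3c and Sema3e are dark in the 4 stellate libraries, and Unc5cl is above 0 only in the 2 Gli1+ libraries after BDL.

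**Figure D2:**
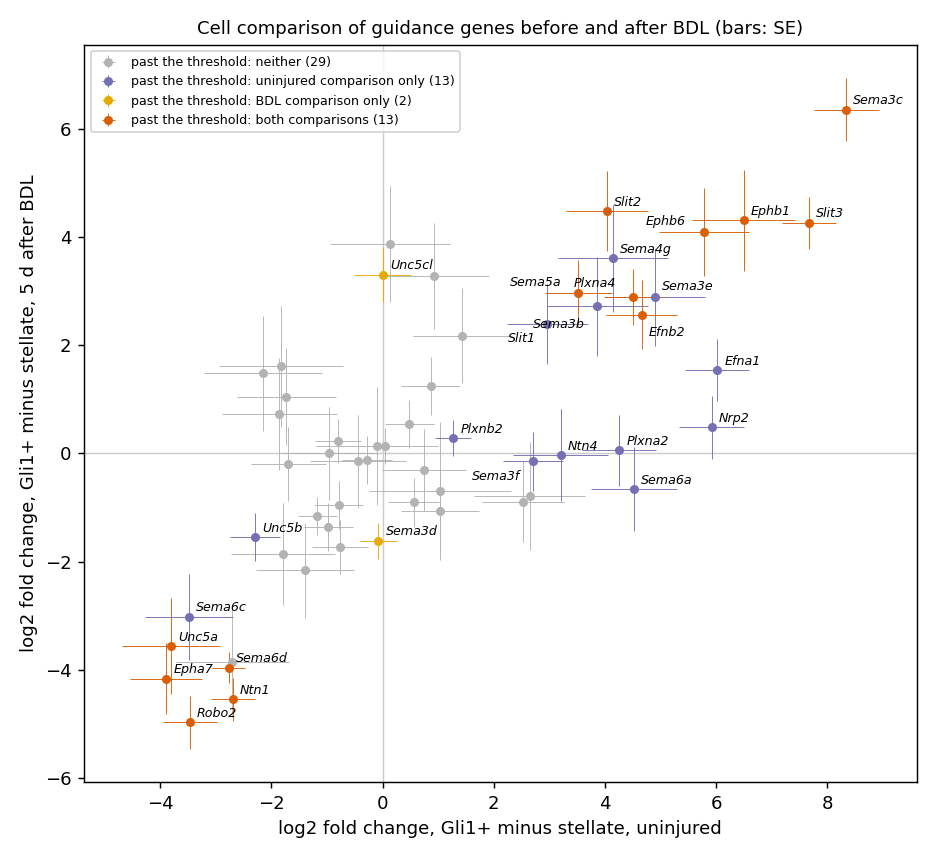
Log2 fold change between Gli1+ and stellate libraries for the 57 tested genes, in uninjured liver (x axis) and 5 d after BDL (y axis), with bars of 1 SE; colours mark the comparison in which a gene passed the test. The 13 genes called in both lie at the upper right (8) and the lower left (5), and Nrp2, Plxna2, Sema6a, Ntn4 and Sema3f, higher in uninjured Gli1+ cells, lie near 0 after BDL.

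Slit2 was higher in Gli1+ cells and its receptor Robo2 in stellate cells. For these 2 genes and for 2 others called in opposite directions in both cell comparisons, Efnb2 and Sema6d, the RefSeq bases before the gene start are shown (GRCm38, 5′ to 3′ on the gene's strand, GC boxes GGGCGG in capitals), because the genes of each pair stand on opposite sides of the same comparison. The windows end at the 5′ end of the GENCODE gene and hold no exon of the gene.
Slit2, 233 bases at chr5:47982905-47983137, plus strand: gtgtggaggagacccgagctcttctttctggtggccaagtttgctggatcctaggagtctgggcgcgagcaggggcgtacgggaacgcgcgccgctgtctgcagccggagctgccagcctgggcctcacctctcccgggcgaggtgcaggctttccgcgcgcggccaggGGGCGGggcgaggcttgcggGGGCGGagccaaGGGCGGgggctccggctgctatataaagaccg
Robo2, 250 bases at chr16:74411826-74412075, minus strand: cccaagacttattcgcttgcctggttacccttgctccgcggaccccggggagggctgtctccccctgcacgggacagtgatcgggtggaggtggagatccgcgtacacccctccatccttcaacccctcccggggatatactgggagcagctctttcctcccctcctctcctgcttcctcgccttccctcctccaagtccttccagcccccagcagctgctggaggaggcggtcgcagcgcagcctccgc
Efnb2, 250 bases at chr8:8661243-8661492, minus strand: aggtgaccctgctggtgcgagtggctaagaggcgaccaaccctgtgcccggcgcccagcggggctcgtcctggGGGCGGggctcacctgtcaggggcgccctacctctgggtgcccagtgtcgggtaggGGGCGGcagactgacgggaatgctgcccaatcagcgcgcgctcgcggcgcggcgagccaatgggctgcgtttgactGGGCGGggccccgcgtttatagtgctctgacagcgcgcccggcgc
Sema6d, 250 bases at chr2:124089719-124089968, plus strand: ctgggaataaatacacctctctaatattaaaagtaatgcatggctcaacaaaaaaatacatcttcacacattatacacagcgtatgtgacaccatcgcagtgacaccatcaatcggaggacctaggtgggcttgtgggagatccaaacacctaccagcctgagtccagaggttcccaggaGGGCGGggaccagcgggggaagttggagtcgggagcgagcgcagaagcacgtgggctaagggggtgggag
Slit2 and Efnb2 each hold 3 GC boxes and a TATAAA match on the strand shown or its complement, Sema6d holds 1 GC box and Robo2 holds neither. A window of 250 bases before the start was found for 60 of the 70 genes. The GC box occurred on either strand in 44 of the 60 and in 32.7% of 32841 RefSeq windows of the same length, and TATAAA in 2 of the 60, Efnb2 and Slit2, against 12.4%. The E-box CANNTG, which can overlap other motifs, occurred in 29 of the 60 against 66.2%, and the GLI motif GACCACCCA in 0 of the 60 against 0.225%. Median GC content was 64.8% in the 60 windows and 52.4% in all. These matches describe letters in a window and carry no test.

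In uninjured liver Slit3, a secreted Robo ligand on chromosome 11, had 257 and 196 CPM in the Gli1+ libraries against 0.0612 and 0.156 CPM in the stellate ones. After BDL it had 164 and 162 CPM in the former and 6.31 and 8.92 CPM in the latter. The groups did not overlap at either time. The uninjured stellate values are 4 reads in all, so the ratio over them is imprecise. Pooling the reads of each group, the ratio was 1956-fold in uninjured liver (log2 fold change 7.67 ± 0.48 (SE), adjusted p = 0.000149) and 22.1-fold after BDL (4.27 ± 0.48 (SE), adjusted p = 0.00210), a call that was lost without replicate 1 of Gli1+ BDL (adjusted p = 0.0528).

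Slit2 was far less abundant, at 16.8 and 15.9 CPM in uninjured and 15.1 and 30.0 CPM in ligated Gli1+ libraries. Its stellate values were 0.122 and 0 CPM before and 0 CPM in both libraries after BDL. It was thus close to undetected in stellate cells, and its ratio was 289-fold (95% counting interval 79.5 to 2392) in uninjured liver and, from the upper limit that 0 reads allow (3 reads over both libraries), at least 228-fold after BDL. The log2 fold changes were 4.03 ± 0.74 (SE), adjusted p = 0.0106, and 4.48 ± 0.74 (SE), adjusted p = 0.00988. Without any one of the 4 BDL libraries the call after BDL was lost (adjusted p up to 0.101). Intervals and limits here cover counting error only.

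Slit1, the third family member, was found in Gli1+ libraries alone, at 13.7 and 3.14 CPM before and 4.51 and 4.01 CPM after BDL, and no read fell on it in the 4 stellate libraries. It was at least 86.0-fold higher in uninjured Gli1+ cells (log2 fold change 2.96 ± 0.73 (SE), adjusted p = 0.0352). That call held only without Gli1+ uninjured replicate 2 among the fits that each left out 1 of the 8 libraries, and adjusted p reached 0.0899 in the other 7. After BDL its adjusted p was 0.0992.

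The receptor Robo2, on chromosome 16, had the opposite pattern to the Slits. It was at 8.88 and 5.25 CPM in uninjured Gli1+ libraries and 76.1 and 97.7 CPM in uninjured stellate libraries, and at 3.79 and 4.19 CPM against 136 and 179.7 CPM after BDL. Every stellate value lay above every Gli1+ value. Stellate cells were 13.2-fold higher in uninjured liver (log2 fold change -3.47 ± 0.49 (SE), adjusted p = 0.00313) and 38.2-fold higher after BDL (-4.98 ± 0.49 (SE), adjusted p = 0.00118). Each call held in the 8 fits that left out 1 library.

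Robo1, another Slit receptor, ranged from 2.74 to 18.7 CPM in the Gli1+ and from 15.1 to 56.6 CPM in the stellate libraries, and did not pass either cell comparison (adjusted p = 0.391 and 0.216). Robo4, the Robo of endothelial cells, was at 7.01 and 8.10 CPM in uninjured Gli1+, 1.10 and 0.0521 CPM in uninjured stellate, 18.5 and 35.3 CPM in ligated Gli1+ and 66.3 and 35.3 CPM in ligated stellate libraries. Its lowest values were in uninjured stellate cells, which did not overlap with ligated stellate cells, and the ligated libraries of both cell types overlapped. The cell comparisons of Robo4 gave adjusted p = 0.0657 and 0.617. Robo3, whose 3′ end lies 554 bases past that of Robo4 on the opposite strand of chromosome 9, stayed at or below 0.934 CPM.

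**Figure D3:**
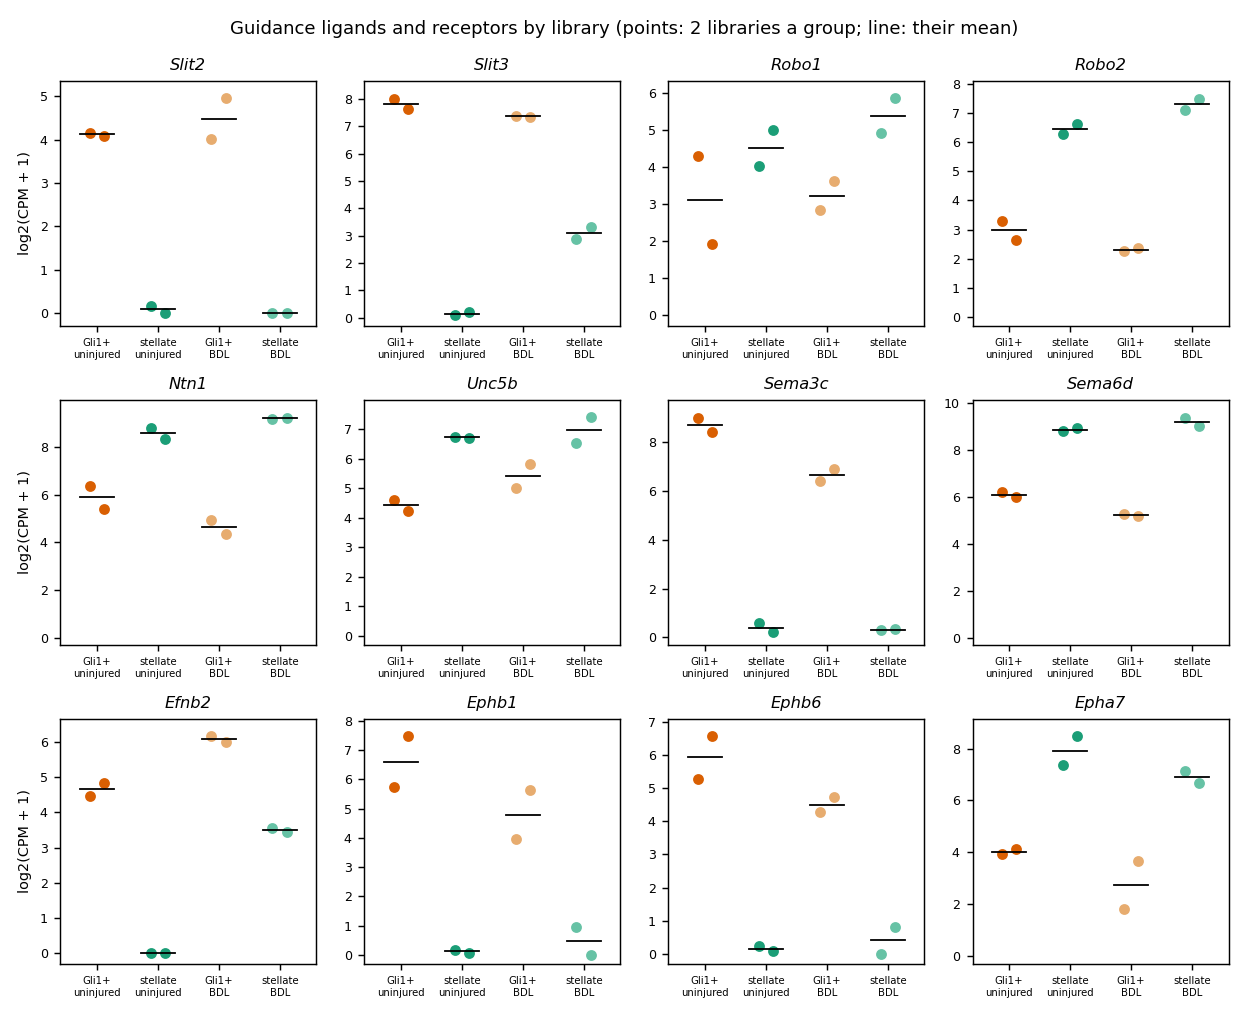
Level of 12 guidance ligands and receptors in the 8 libraries as log2(CPM + 1), with 1 point per library and a line at the mean of the 2 libraries of a group. For Slit2 and Slit3 the Gli1+ points lie above the stellate points, and for Robo2, Ntn1, Unc5b, Sema6d and Epha7 below them, before and after BDL.

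Among netrins, Ntn1, encoding netrin-1, was at 446 and 326 CPM in uninjured and 577 and 599.9 CPM in ligated stellate libraries. In Gli1+ libraries it was at 81.2 and 41.4 CPM and, after BDL, 29.6 and 19.6 CPM. The lowest stellate value was thus above the highest Gli1+ value. The ratio was 6.69-fold (log2 fold change -2.69 ± 0.40 (SE), adjusted p = 0.00434) before and 24.6-fold (-4.55 ± 0.40 (SE), adjusted p = 0.000885) after BDL, and both calls held in each of the 8 fits without 1 library.

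Unc5 receptors mediate repulsion from netrin, and Unc5a and Unc5b, the members tested, were lower in uninjured Gli1+ cells. Unc5b was at 23.6 and 17.8 CPM in uninjured Gli1+ libraries against 107 and 103 CPM in stellate ones, a 5.23-fold difference (log2 fold change -2.30 ± 0.45 (SE), adjusted p = 0.0138). After BDL the values were 31.3 and 55.6 CPM against 91.8 and 168 CPM, which do not overlap but did not pass (adjusted p = 0.0821). The uninjured call was lost without either uninjured Gli1+ library (adjusted p up to 0.0680).

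Unc5a was at 37.2 and 37.9 CPM in uninjured and 34.7 and 33.6 CPM in ligated stellate libraries. It was at 0.178 and 5.48 CPM and 1.85 and 2.10 CPM in the Gli1+ ones. The stellate level was 11.0-fold higher before (-3.80 ± 0.88 (SE), adjusted p = 0.0274) and 17.2-fold higher after BDL (-3.56 ± 0.88 (SE), adjusted p = 0.0483). Of the fits without 1 library, the uninjured call held only without Gli1+ uninjured replicate 2 (adjusted p up to 0.0776 in the others), and the call after BDL was lost without any of the 4 BDL libraries (up to 0.269).

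Ntn4, a netrin of basement membranes, went the other way in uninjured liver, at 19.8 and 8.84 CPM in Gli1+ cells but 0.489 and 0.626 CPM in stellate cells. The ratio was 23.3-fold (log2 fold change 3.20 ± 0.85 (SE), adjusted p = 0.0453), but the call was lost in all 8 fits without 1 library (adjusted p 0.0539 to 0.179) and with TMM scaling. After BDL the groups overlapped, at 5.88 and 20.5 CPM and 11.0 and 11.8 CPM. Unc5c, Unc5d, Dcc and Ntn5 had at most 1.56 CPM in any library.

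Of 6 tested class 3 semaphorins, 4 were called higher and 0 lower in uninjured Gli1+ cells, and 3 of the 4 (Sema3b, Sema3c and Sema3e) had entered the test through Gli1+ libraries only. Sema3c was the clearest, at 519 and 345 CPM in uninjured and 85.4 and 119.7 CPM in ligated Gli1+ libraries, against 0.489 and 0.156 CPM and 0.234 and 0.255 CPM in the stellate ones. No stellate library reached 1 CPM. The ratio was 1334-fold (log2 fold change 8.34 ± 0.59 (SE), adjusted p = 0.000228) in uninjured and 434-fold (6.36 ± 0.59 (SE), adjusted p = 0.000972) in ligated liver, and no fit without 1 library lost either call.

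Sema3e, which can bind plexin-D1 without a neuropilin, was at 51.7 and 15.8 CPM in uninjured Gli1+ libraries and had no read in the uninjured stellate ones, a difference of at least 353-fold (log2 fold change 4.89 ± 0.90 (SE), adjusted p = 0.0106). Sema3b was at 27.9 and 6.33 CPM against no read, at least 175-fold (3.86 ± 0.91 (SE), adjusted p = 0.0288). Both were low or undetected in every stellate library. Sema3b lost its call without Gli1+ uninjured replicate 1, without either uninjured stellate library and without either ligated stellate library (adjusted p up to 0.109), whereas Sema3e kept its call in all 8. After BDL they stood at 13.9 and 3.59 CPM and 12.1 and 2.81 CPM in Gli1+ libraries and at or below 0.255 CPM in stellate libraries, with adjusted p = 0.104 and 0.128.

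Sema3f, whose preferred co-receptor is neuropilin-2, was at 84.9 and 70.0 CPM in uninjured Gli1+ against 6.48 and 18.1 CPM in uninjured stellate libraries. It was 5.93-fold higher there (log2 fold change 2.71 ± 0.54 (SE), adjusted p = 0.0153), and lost the call without either uninjured Gli1+ library (adjusted p up to 0.0930). After BDL the groups overlapped, at 43.8 and 83.8 CPM and 65.6 and 69.1 CPM.

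Sema3d passed the test between the cells after BDL and not before. Uninjured values were nearly equal, 175 and 172 CPM for Gli1+ and 184 and 181 CPM for stellate libraries (log2 fold change -0.08 ± 0.33 (SE), adjusted p = 0.936). After BDL they were 49.8 and 76.4 CPM and 162 and 224 CPM, so that Gli1+ cells were 2.88-fold lower (-1.61 ± 0.33 (SE), adjusted p = 0.0230). The test of the change between these differences did not pass (adjusted p = 0.482), and the call was lost without any of the 4 BDL libraries (up to 0.197). Sema3a, the class 3 ligand of neuropilin-1, was at 3.71 to 18.7 CPM throughout, and Sema3g stayed under 1 CPM in 7 libraries.

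Among membrane-bound semaphorins the most abundant, Sema6d, was higher in stellate cells. It was at 441 and 486 CPM in uninjured and 663 and 513 CPM in ligated stellate libraries, against 72.5 and 62.1 CPM and 37.8 and 35.2 CPM in Gli1+ libraries. The groups were far apart and the 2 libraries of each close together. Stellate cells were 7.03-fold higher before (log2 fold change -2.77 ± 0.29 (SE), adjusted p = 0.000949) and 16.6-fold higher after BDL (-3.96 ± 0.29 (SE), adjusted p = 0.000507), in all 8 fits without 1 library.

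Sema6c was likewise lower in uninjured Gli1+ cells, at 8.17 and 2.05 CPM against 89.3 and 38.0 CPM (log2 fold change -3.49 ± 0.80 (SE), adjusted p = 0.0258). The call was lost without Gli1+ uninjured replicate 2, stellate uninjured replicate 1 or either ligated stellate library (adjusted p up to 0.0924). After BDL it was at 1.45 and 2.04 CPM against 19.0 and 23.5 CPM, which do not overlap, with adjusted p = 0.0603.

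Sema5a, which carries thrombospondin repeats, stood on the Gli1+ side in both comparisons. It was at 92.4 and 89.3 CPM in uninjured Gli1+ and 6.18 and 7.92 CPM in uninjured stellate libraries, a 12.7-fold difference (log2 fold change 3.52 ± 0.60 (SE), adjusted p = 0.00781). Ligated livers gave 43.2 and 56.5 CPM against 2.92 and 9.51 CPM, 9.06-fold (2.97 ± 0.60 (SE), adjusted p = 0.0214). The first call was lost without Gli1+ uninjured replicate 1 (adjusted p = 0.0541), the second without either ligated Gli1+ library or ligated stellate replicate 1 (up to 0.164).

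Sema4g and Sema6a were called higher in Gli1+ cells of uninjured liver. Sema4g was at 42.3 and 7.65 CPM against 0 and 0.209 CPM (log2 fold change 4.14 ± 0.99 (SE), adjusted p = 0.0308), and of the fits without 1 library it kept its call only without Gli1+ uninjured replicate 2 (adjusted p up to 0.135). After BDL it was at 22.9 and 51.1 CPM against 0.934 and 3.31 CPM, with adjusted p = 0.0692. Sema6a, a ligand of plexin-A2 and plexin-A4, was at 60.8 and 39.2 CPM against 3.73 and 0 CPM (4.52 ± 0.78 (SE), adjusted p = 0.00794), a call lost without Gli1+ uninjured replicate 1 (adjusted p = 0.0672). The uninjured stellate library with the higher Sema6a value, replicate 1, also had the higher macrophage, endothelial (480 against 122 CPM), hepatocyte and lymphocyte marker sums. Its stellate, portal fibroblast, mesothelial and smooth muscle sums were the lower ones. The part of any of these cells in Sema6a was not tested.

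Sema4b, the second most abundant of these classes, was at 69.6 and 98.8 CPM in uninjured Gli1+ and 76.2 and 41.1 CPM in uninjured stellate libraries, and at 15.0 and 18.7 CPM and 29.8 and 34.7 CPM after BDL. Neither cell comparison passed (adjusted p = 0.503 and 0.334). Sema4a, Sema4c, Sema4d, Sema5b and Sema6b did not pass in any comparison, with values from 0 to 46.4 CPM.

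Plexins are the signalling receptors of semaphorins. Of 9 plexins, 3 were higher in uninjured Gli1+ cells, 0 lower, and 1 was higher after BDL. Plxna4 was at 165 and 262 CPM in uninjured Gli1+ and 11.9 and 5.58 CPM in uninjured stellate libraries, 26.4-fold higher (log2 fold change 4.50 ± 0.52 (SE), adjusted p = 0.00136). In ligated liver it was at 121 and 163 CPM against 12.7 and 25.8 CPM, 8.06-fold (2.89 ± 0.52 (SE), adjusted p = 0.0136). The groups did not overlap at either time, and the call after BDL was lost without any of the 4 BDL libraries (adjusted p up to 0.132). The exons of Plxna4 overlap an antisense gene, Plxna4os3, over 110 bases, and the counting setting for strand is not given in the sources used here.

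Plxna2 had no read in the uninjured stellate libraries and 17.5 and 18.6 CPM in the uninjured Gli1+ ones, a difference of at least 215-fold (log2 fold change 4.25 ± 0.66 (SE), adjusted p = 0.00518). After BDL the 2 cell types overlapped, at 20.5 and 28 CPM for Gli1+ and 21.6 and 24.5 CPM for stellate libraries. Plxnb2, a receptor of class 4 semaphorins and the most abundant plexin by mean CPM, was at 259.6 and 319 CPM against 151 and 93.7 CPM, 2.46-fold higher (1.27 ± 0.33 (SE), adjusted p = 0.0418). That call was lost with TMM scaling and, of the fits without 1 library, held only without stellate uninjured replicate 1 (adjusted p up to 0.151). After BDL Plxnb2 was at 238 and 201 CPM and 173 and 187 CPM.

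Plxnc1, the receptor of Sema7a, was at 26.8 and 7.36 CPM in uninjured Gli1+ and 135 and 72.1 CPM in uninjured stellate libraries, then at 6.45 and 81.8 CPM and 390.2 and 335 CPM after BDL. Stellate values lay above Gli1+ values both times, but the Gli1+ libraries differed widely from each other and neither comparison passed (adjusted p = 0.140 and 0.0598). Plxna1, Plxna3, Plxnb1, Plxnb3 and Plxnd1 passed in no comparison, and Plxnb3 reached 1 CPM in 2 libraries.

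The neuropilins differed from each other. Nrp1, co-receptor for Sema3a and VEGF-A, was abundant everywhere, at 238 and 132 CPM and 427 and 220.4 CPM in uninjured and 166 and 281 CPM and 397 and 444 CPM in ligated Gli1+ and stellate libraries, and passed in neither cell comparison (adjusted p = 0.336 and 0.289). Nrp2, co-receptor for Sema3f and VEGF-C, was at 47.4 and 98.1 CPM in uninjured Gli1+ and 0.245 and 0.0521 CPM in uninjured stellate libraries. The latter are 5 reads in all. Nrp2 was 556-fold higher in Gli1+ cells (log2 fold change 5.92 ± 0.59 (SE), adjusted p = 0.000721), in all 8 fits without 1 library. Its ligated values were 41.7 and 69.9 CPM and 39.0 and 37.8 CPM, with adjusted p = 0.765.

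Ephrins were carried by both cell types, and 2 of 7 tested were higher in uninjured Gli1+ cells. Efna1, a membrane-anchored ligand of EphA receptors, was at 50.7 and 84.7 CPM in uninjured Gli1+ and 0.0612 and 0 CPM in uninjured stellate libraries, the latter 1 read in all. Its ratio was 2538-fold (95% counting interval 455 to 100279) (log2 fold change 6.01 ± 0.57 (SE), adjusted p = 0.000600). After BDL the values were 77.7 and 58.3 CPM and 19.2 and 26.3 CPM, with adjusted p = 0.171.

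Efnb2, the transmembrane ligand of EphB4, was at 21.2 and 27.6 CPM in uninjured Gli1+ libraries with no read in the uninjured stellate ones, at least 297-fold higher (log2 fold change 4.66 ± 0.63 (SE), adjusted p = 0.00277). After BDL it was at 70.8 and 62.6 CPM against 10.9 and 9.94 CPM, 6.30-fold (2.57 ± 0.63 (SE), adjusted p = 0.0472). Gli1+ values lay above stellate values at both times. The call after BDL was lost with TMM scaling and without any of the 4 BDL libraries (adjusted p up to 0.272).

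The most abundant ephrin by mean CPM, Efna5, was at 171 and 369.7 CPM and 137 and 236 CPM in uninjured and 122 and 122 CPM and 100.1 and 69.1 CPM in ligated Gli1+ and stellate libraries. Efnb1 was at 59.0 and 62.9 CPM and 71.4 and 76.9 CPM, then 29.0 and 47.2 CPM and 29.1 and 56.2 CPM. Neither gene passed between the cells (adjusted p 0.562 to 0.928). Efna2, Efna4 and Efnb3 passed in no comparison, and Efnb3 had 12.2 CPM in stellate uninjured replicate 1 and at most 1.38 CPM in the other libraries.

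Eph receptors split by member, with 2 of 10 tested higher and 1 lower in Gli1+ cells in both cell comparisons. Epha7 was at 165 and 353 CPM in uninjured and 139 and 102 CPM in ligated stellate libraries, against 14.3 and 16.3 CPM and 2.5 and 11.8 CPM in Gli1+ libraries. Stellate cells were 17.2-fold higher before (log2 fold change -3.90 ± 0.65 (SE), adjusted p = 0.00685) and 15.8-fold higher after BDL (-4.17 ± 0.65 (SE), adjusted p = 0.00766). The first call was lost without Gli1+ uninjured replicate 1 (adjusted p = 0.0544) and the second without Gli1+ BDL replicate 1 or either ligated stellate library (up to 0.0966).

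Ephb1 and Ephb6 stood on the other side. Ephb1 was at 52.7 and 177 CPM in uninjured Gli1+ libraries and 0.122 and 0.0521 CPM in uninjured stellate ones, which is 3 reads in all, and its ratio was 1518-fold (95% counting interval 519 to 7365) (log2 fold change 6.49 ± 0.93 (SE), adjusted p = 0.00365). Following BDL its values were 14.6 and 48.4 CPM against 0.934 and 0 CPM, 61.4-fold (4.32 ± 0.93 (SE), adjusted p = 0.0279). The exons of Ephb1 overlap the antisense gene Gm26846 over 152 bases.

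Ephb6, a receptor whose kinase domain is inactive, was at 38.3 and 94.1 CPM against 0.183 and 0.0521 CPM in uninjured liver, 642-fold higher (log2 fold change 5.78 ± 0.81 (SE), adjusted p = 0.00321). After BDL the values were 18.6 and 25.4 CPM and 0 and 0.765 CPM, 72.4-fold (4.10 ± 0.81 (SE), adjusted p = 0.0197). Both receptors were near 0 in stellate cells throughout, and Ephb6 had 4 reads in all in the uninjured stellate libraries. The uninjured calls of both held in the 8 fits without 1 library, and the calls after BDL were lost without any of the 4 BDL libraries (adjusted p up to 0.209 for Ephb1 and 0.165 for Ephb6).

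Ephb4, the receptor of ephrin-B2, was at 27.8 and 36.3 CPM in uninjured Gli1+ and 70.3 and 75.8 CPM in uninjured stellate libraries, and at 60.6 and 52.2 CPM against 115 and 139.9 CPM after BDL. The groups did not overlap, yet neither comparison passed (log2 fold change -1.17 ± 0.35 (SE), adjusted p = 0.0661, and -1.16 ± 0.35 (SE), adjusted p = 0.0926), although TMM scaling called the first. Epha1, Epha2, Epha3, Epha4, Ephb2 and Ephb3 passed in no comparison, with values from 0 to 148.7 CPM.

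Of the symbols outside the families, Unc5cl, which encodes a death-domain protein named for its likeness to Unc5 receptors, had reads only in the ligated Gli1+ libraries, at 11.1 and 7.12 CPM. It was at least 85.0-fold higher there than in ligated stellate cells (log2 fold change 3.31 ± 0.51 (SE), adjusted p = 0.00732), a call lost without either ligated stellate library (adjusted p up to 0.0890); without either ligated Gli1+ library it was not tested. Unc50 varied little, from 96.02 to 145 CPM over the 8 libraries, and passed in no comparison.

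Levels can be compared between genes per length of exon, here as CPM per kilobase and leaving Unc50 aside. In uninjured Gli1+ cells Efna5 was at 42.4 and 91.7, Sema3c at 72.6 and 48.3, Plxnb2 at 33.6 and 41.3 and Slit3 at 42.4 and 32.4 CPM per kilobase. Efna5 overlapped with Sema3c and, barely, with Slit3, and Plxnb2 overlapped with Slit3, so none of these pairs was ordered beyond its spread. Efna1, at 27.7 and 46.3 CPM per kilobase, overlapped with Efna5, Plxnb2 and Slit3. In uninjured stellate cells Ntn1 was at 71.0 and 51.9, Efna5 at 34.1 and 58.5 and Sema6d at 41.7 and 46.0 CPM per kilobase, and Efna5 overlapped with both others. After BDL Efna1 led in Gli1+ cells, at 42.5 and 31.9 beside Efna5 at 30.3 and 30.3 CPM per kilobase. Ntn1 led in stellate cells, at 91.9 and 95.6 beside Sema6d at 62.8 and 48.6 CPM per kilobase, with no overlap in either case. The mean of Efna1 in Gli1+ cells was 37.0 before and 37.2 CPM per kilobase after BDL. That of Efna5 was 67.0 and 30.3 CPM per kilobase.

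The second question was what BDL changes within each cell type. In stellate cells 4 guidance genes rose and 0 fell, 4 of 57 against 0.225% of all genes tested (0.225% higher and 0% lower). Uninjured and ligated stellate libraries did not overlap for 33 of 57 genes and for 39.6% of all genes. The 4 that rose were the co-receptor Nrp2, the receptor Plxna2, the ligand Efna1 and the receptor Robo4. The uninjured stellate libraries used here are those of the uninjured cell comparison, in which Nrp2, Plxna2 and Efna1 were also called, so these calls are not independent of it.

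Nrp2 rose from 0.245 and 0.0521 CPM to 39.0 and 37.8 CPM in stellate libraries, a ratio of 274-fold (log2 fold change 5.11 ± 0.59 (SE), adjusted p = 0.0223). Plxna2 rose from no read to 21.6 and 24.5 CPM, at least 269.7-fold (4.58 ± 0.66 (SE), adjusted p = 0.0442). Efna1 rose from 0.0612 and 0 CPM to 19.2 and 26.3 CPM, 786-fold (95% counting interval 140.5 to 31078) (4.51 ± 0.57 (SE), adjusted p = 0.0252). In uninjured stellate cells each of these genes was thus close to undetected, and the 2 ligated libraries lay near each other. Robo4 rose from 1.10 and 0.0521 CPM to 66.3 and 35.3 CPM, 100.4-fold (5.05 ± 0.74 (SE), adjusted p = 0.0458).

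In the same libraries, 10 of 10 endothelial markers had positive log2 fold changes after BDL (median 3.45), and 0 of them passed. Their summed level was 480 and 122 CPM in uninjured and 2453 and 1772 CPM in ligated stellate libraries. Markers that rose in this comparison were Dpt of 10 portal fibroblast markers (0.734 and 1.72 CPM before, 22.9 and 21.7 CPM after, adjusted p = 0.0252), Acta2 of 7 smooth muscle markers (11.1 and 16.1 CPM, then 128 and 348 CPM, adjusted p = 0.0252) and Spp1 of 9 cholangiocyte markers (2.02 and 2.61 CPM, then 177 and 743 CPM, adjusted p = 0.0406). The 8 hepatocyte markers had a higher median log2 fold change than the endothelial ones, 4.64, and 0 of them passed. They summed to 150 and 42.2 CPM in uninjured and 1624 and 1440 CPM in ligated stellate libraries. Over both cell types the hepatocyte sums were 42.2 to 1088 CPM before and 1440 to 14664 CPM after BDL. The part of all these transcripts in the 4 calls was not tested.

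The 4 stellate calls rest on few libraries. They were lost in the 6 fits that left out a Gli1+ library or a ligated stellate library (adjusted p up to 0.315 for Nrp2, 0.350 for Efna1, 0.492 for Plxna2 and 0.487 for Robo4), and 7 guidance genes were called without either uninjured stellate library. TMM scaling kept 2 of them, Nrp2 and Efna1 (0.134% of all genes), limma-voom called 0 (0%), edgeR 5 (0.377%) and DESeq2 10 (6.22%). With a block for the replicate number, 1 was called, Nrp2.

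Other guidance genes had high ligated values in stellate cells without passing. Slit3 was at 0.0612 and 0.156 CPM before and 6.31 and 8.92 CPM after BDL (log2 fold change 2.94 ± 0.48 (SE), adjusted p = 0.0691). Sema6a was at 3.73 and 0 CPM and 53.4 and 53.7 CPM (4.65 ± 0.78 (SE), adjusted p = 0.0727), and Efnb2 at 0 in both and 10.9 and 9.94 CPM (3.51 ± 0.63 (SE), adjusted p = 0.0947). The uninjured and ligated libraries of these genes did not overlap. Sema3f was at 6.48 and 18.1 CPM and 65.6 and 69.1 CPM (2.51 ± 0.54 (SE), adjusted p = 0.136). The stellate leaders Ntn1, Sema6d and Robo2 had log2 fold changes of 0.62, 0.33 and 0.85, with adjusted p = 0.603, 0.725 and 0.554.

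**Figure D4:**
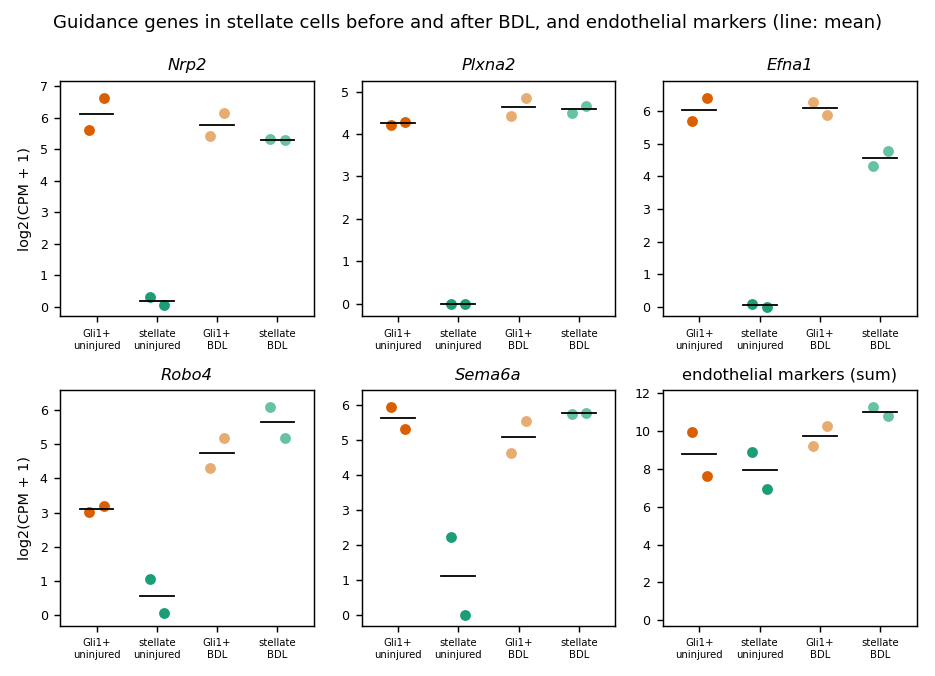
Levels of Nrp2, Plxna2, Efna1, Robo4 and Sema6a, and the summed level of 10 endothelial markers, as log2(CPM + 1) in each library, with a line at the group mean. Uninjured stellate cells hold the lowest values of the 5 genes, and ligated stellate libraries hold the highest marker sums (2453 and 1772 CPM).

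In Gli1+ cells 0 of 57 guidance genes passed after BDL by limma, where 0% of all genes tested did. At an unadjusted p under 0.05 there were 11 of 57, 19.3% beside 11% of all genes, and edgeR called 0 (0% of all genes), limma-voom 0 (0%) and DESeq2 3 (Sema3c, Sema3d and Sema4b, with 2.51% of all genes called). Sema3c was at 519 and 345 CPM in uninjured and 85.4 and 119.7 CPM in ligated Gli1+ libraries (log2 fold change -2.05 ± 0.59 (SE), adjusted p = 0.196). Sema3d was at 175 and 172 CPM and 49.8 and 76.4 CPM (-1.47 ± 0.33 (SE), adjusted p = 0.109), and Sema4b at 69.6 and 98.8 CPM and 15.0 and 18.7 CPM (-2.24 ± 0.45 (SE), adjusted p = 0.0864). For each of these 3 ligands both ligated libraries lay below both uninjured ones, as they did for 18 of 57 guidance genes and 16.2% of all genes tested. In the same libraries 10 portal fibroblast markers summed to 9443 and 6411 CPM before and 3103 and 2626 CPM after BDL (median log2 fold change -1.54), and 9 cholangiocyte markers to 4260.1 and 3315 CPM before and 16064 and 7843 CPM after (median 1.27). No marker of either list passed, and their part in the values of the ligands was not tested. Unc5cl had no read before and 11.1 and 7.12 CPM after BDL (3.31 ± 0.51 (SE), adjusted p = 0.0585), and passed when genes of low level were also tested (adjusted p = 0.0414). Slit3, Plxna4 and Nrp2 had log2 fold changes of -0.46, -0.56 and -0.33 (adjusted p = 0.829, 0.802 and 0.911).

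Whether BDL acted differently on the 2 cell types was tested as the difference of their responses, and 0 of 57 guidance genes passed, where 0.0122% of all genes did. At an unadjusted p under 0.05 there were 18 of 57, 31.6% beside 7.48% of all genes. edgeR called 2 (Efna1 and Slit3, with 0.0669% of all genes called), DESeq2 5 (Efna1, Efnb2, Nrp2, Plxna2 and Slit3, 2.37%) and limma-voom 0 (0%). The difference for Nrp2, Gli1+ minus stellate, was -5.44 ± 0.83 (SE), adjusted p = 0.151, that for Sema6a -5.18 ± 1.10 (SE), adjusted p = 0.341 and that for Efna1 -4.47 ± 0.81 (SE), adjusted p = 0.292. Without stellate uninjured replicate 1, Nrp2 and Sema6a passed (adjusted p = 0.0492 and 0.0311).

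Among 25 other ligands, co-receptors and regulators of these pathways, 20 were tested, and 4 were higher and 1 lower in uninjured Gli1+ cells, where 8.06% and 3.02% of all genes were. Among them were Met, a receptor that associates with plexins (6.33 ± 0.73 (SE), adjusted p = 0.00137), Flrt3 (6.19 ± 0.67 (SE), adjusted p = 0.00101) and Flrt2 (5.96 ± 1.35 (SE), adjusted p = 0.0253), which are adhesion proteins that bind Unc5 and Robo receptors, and, on the stellate side, Lrrc4c, a netrin-G ligand (-6.85 ± 0.83 (SE), adjusted p = 0.00166). After BDL Met, Flrt3 and Lrrc4c were called with the same signs. Lrrc4c had no read in the uninjured Gli1+ libraries against 114 CPM on average in the stellate ones, and was at least 1102-fold lower.

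Of 45 cytoplasmic and adaptor genes, 43 were tested. In uninjured liver 5 were higher in Gli1+ cells and 2 lower (Myo10 and Dpysl2), counts near the 8.06% and 3.02% of all genes, and after BDL 0 were higher and 1, Dpysl2, lower, where 4.44% and 2.36% of all genes were. Grb7, an adaptor of receptor tyrosine kinases, was at 44.9 CPM on average in uninjured Gli1+ and 0.0261 CPM in uninjured stellate libraries (log2 fold change 5.23 ± 0.84 (SE), adjusted p = 0.00586). Myo10, a myosin that carries netrin receptors into filopodia, was at 59.4 CPM against 287 CPM (-2.35 ± 0.55 (SE), adjusted p = 0.0283). Dpysl2, encoding a collapsin response mediator that carries semaphorin signals, was at 481 CPM against 1396 CPM on average before (-1.55 ± 0.41 (SE), adjusted p = 0.0461) and at 117 CPM against 370.3 CPM after BDL (-1.67 ± 0.41 (SE), adjusted p = 0.0488). Neither list had a gene past the test for BDL in either cell type. Their medians in the uninjured cell comparison were 0.75 and 0.10, beside 0.32 over all genes.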

How the data were processed

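RNA of 8 libraries (4 groups of 2) was made into libraries by SMART-Seq2, which amplifies full-length cDNA by PCR, per the labels' protocols. The authors deposited 1 table per library in CPM, each summing to 1000000. FastQC, STAR 2.5.2b, featureCounts and DESeq2 and the build mm10 are named in the submitters' processing notes without roles. How strand and reads of several positions were handled, and the annotation release, is not given in the sources used here.

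Values were whole multiples of 1 read in 100.0% of cases (within 0.1 read), which gave the library totals and the counts for the count tests. Symbols and exon lengths came from GENCODE vM21, which matched 30214 of 30395 identifiers. Ntn3 is not analysed here, and 2 antisense matches, Plxna4os1 and Plxna4os2, were left out as non-coding.

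log2(CPM + 1) was fitted with limma 3.58.1 (R 4.3.3, trended variance) on all 8 libraries with 4 group means, leaving 4 residual degrees of freedom, for the 16446 genes that reached 1 CPM in 2 or more libraries. P-values were Benjamini-Hochberg adjusted over all of them, at a threshold of 0.05, and fold changes on this scale understate the change of low genes. Ratios are of reads pooled over a group's 2 libraries, with 3 reads over the group as the floor for 0 reads. Counting intervals are given only where the lower group had 1 to 3 reads. Ratios over 4 or 5 reads, as for Slit3, Ephb6 and Nrp2, are imprecise too. The code was tested on simulated data. Alternatives were a pseudocount of 0.25, no filter, a filter of 5 CPM, TMM scaling, edgeR 4.0.16, DESeq2 1.42.0, limma-voom, a replicate block, only the 4 libraries compared, and each library left out. Named genes are those past the threshold in any comparison and the 2 of highest mean CPM in each family, and up to 4 companion genes per comparison and direction. Members and lists were chosen with earlier results of these data known. Promoter windows are from RefSeq (GRCm38.p6).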

Additional observations from a re-analysis of the deposited data

How the results depend on the processing

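Of 17 alternatives, none reversed the sign of a called guidance gene. With no filter on low values, 2.66% of 30395 genes were called in the uninjured cell comparison. In the uninjured cell comparison 26 genes were called, 16 with no filter on low values and 0 when only the 4 libraries compared were fitted (30 at an unadjusted p under 0.05, and 0 of 16446 genes called); leaving out 1 library gave 15 to 23, the lowest without Gli1+ uninjured replicate 1. The 11 genes Ephb6, Robo2, Slit3, Sema3c, Sema6d, Efna1, Efnb2, Ntn1, Nrp2, Plxna2 and Plxna4 were called under every alternative but the fit of 4 libraries. After BDL 15 were called between the cells, 9 with edgeR and 25 with DESeq2, and 4 to 19 without 1 library (4 and 7 without Gli1+ BDL replicates 1 and 2, 5 and 6 without stellate BDL replicates 1 and 2); Robo2, Sema3c, Sema6d and Ntn1 were called under every alternative.

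For BDL in Gli1+ cells the count of 0 became 2 with no filter (Sema7a and Unc5cl) and 3 with DESeq2, and stayed 0 without any 1 library. For BDL in stellate cells 4 became 0 with no filter, with limma-voom and with only the 4 libraries, 2 with TMM scaling, 10 with DESeq2 and 1 with the replicate block, and 0 to 7 without 1 library. For the difference of responses 0 became 2 with edgeR and 5 with DESeq2, and 0 to 2 without 1 library. The cause was not tested, beyond the fewer libraries and the other set of genes that these fits hold. With no filter, 0.418% of 30395 genes were called for BDL in Gli1+ cells and 0.0197% in stellate cells. Without 1 library a group keeps 1, which is assumed to vary like the other groups. The share of all genes called in the fits without 1 library is not given here, so their counts of guidance genes stand without it.

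Replicate numbers share no stated animal or day. Deviations of same-numbered libraries from their group means correlated at -0.112 to 0.112 between groups. With 2 libraries a group, such values cannot tell whether same-numbered libraries share an animal or a day. With the replicate block 24, 13, 0, 1 and 0 guidance genes were called in the 5 comparisons, in the order used here. The shares of all genes called were 9.52%, 5.73%, 0%, 0.109% and 0%. Depth limits genes near 3 reads, 0.156 to 0.266 CPM, where fold changes depend on the pseudocount.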

Other observations

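Some guidance genes lie next to each other on the mouse genome (mm10). Efna1, Efna3 and Efna4 lie on the minus strand of chromosome 3, with 32757 and 10425 bases between neighbours. Their levels were unlike: Efna1 reached 84.7 CPM, Efna3 stayed at or below 0.322 CPM and Efna4 was at 24.4 and 18.9 CPM in ligated Gli1+ libraries and at most 4.33 CPM elsewhere. The exons of Efna4 overlap the antisense gene 4731419I09Rik over 168 bases, 10.5% of their length. The counting setting for strand is not given. Sema3b and Sema3f, with 72271 bases between them on chromosome 9, were both higher in uninjured Gli1+ cells. Ephb2 and Epha8 lie 93431 bases apart on chromosome 4, and Epha8 stayed at or below 0.12 CPM where Ephb2 was at 0.399 to 26.3 CPM.

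Beside the genes of the naming rule, Efna4, Epha4 and Ephb2 had the highest log2 fold changes after BDL in Gli1+ cells among the genes of the ephrin and Eph families. They are named after their values were seen, and none passed by limma. Efna4 had log2 fold change 3.53 ± 0.99 (SE), adjusted p = 0.186. Epha4, a receptor for ephrins of both classes, was at 0 and 10.4 CPM before and 39.6 and 36.2 CPM after BDL (3.52 ± 1.06, adjusted p = 0.224). Ephb2 was at 6.57 and 0.399 CPM before and 20.5 and 26.3 CPM after (2.89 ± 0.90, adjusted p = 0.237). Both ligated libraries lay above both uninjured libraries for each of the 3 genes, as they did for 13 of 57 guidance genes and 25.1% of all genes tested.

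The antisense genes Plxna4os1 and Plxna4os2 were at or below 8.87 CPM in all libraries.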
